A study of Arabidopsis thaliana with 12 samples.

Results

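The genes described here encode 4 proteins of the plant's defence against reactive oxygen: AT3G52960, a chloroplast peroxiredoxin, SRX, a sulfiredoxin, CCS, the copper chaperone of superoxide dismutase, and GLDH, the last enzyme of ascorbate synthesis. They were taken by name, as the probes whose platform annotation names exactly 1 gene, and they are 4 of 692 such probes among 3439 in the table. Their probes carry the numbers 1966 (AT3G52960), 2656 (SRX, locus AT1G31170), 347 (CCS, locus AT1G12520) and 592 (GLDH, locus AT3G47930).

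Wild-type Arabidopsis thaliana of the ecotype Landsberg, treated with 50 µM paraquat, gave the total RNA of every column. The 6 columns called dark are of plants held dark for 12 h, and the 6 called light are of plants that had spent 30 min back in light following a dark period of that length. Both groups carry paraquat and no untreated plants were analysed here, so every difference below is light against dark in treated plants, and light cannot be told apart from the later sampling time. Neither the plants' age nor the tissue is stated, nor whether columns are of separate plants, so the p-values reflect the scatter among these 12 columns, part or all of which may be technical.

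Paraquat is a herbicide that accepts electrons at photosystem I and hands them on to oxygen, which gives superoxide in the chloroplast. Superoxide dismutases turn superoxide into hydrogen peroxide, and ascorbate peroxidases and peroxiredoxins reduce that peroxide to water. Photosystem I supplies these electrons in light, and the comparison asks how transcripts stood shortly after the return to it.

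AT3G52960 and SRX had a lower mean in light than in dark, with intensities at 0.853 and 0.849 of the dark level on the normalised scale. GLDH stood at 1.08 of that level. CCS was at or close to the bottom of the table, with a mean deposited intensity of 0.109 in light and 0.125 in dark (exact permutation test, two-sided p = 0.747). Neither AT3G52960, SRX nor GLDH passed a false discovery threshold of 0.05 in the fit that takes columns as unpaired (limma, Benjamini-Hochberg adjustment over all 3409 probes tested, n = 6), where 5.78% of all probes passed. AT3G52960 had an unadjusted p of 0.0144 in that limma fit, where 20.0% of all probes were under 0.05. With columns of the same replicate number treated as pairs, AT3G52960 passed and the other 2 did not, and 13.1% of all probes passed.

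AT3G52960 encodes the type II peroxiredoxin of the chloroplast, known as PRXIIE, which reduces hydrogen peroxide and organic hydroperoxides. Its deposited intensity in dark was 1.90, 1.79, 1.81, 1.78, 1.52 and 1.55 in columns 1 to 6, a mean of 1.73 ± 0.153 (SD, n = 6). In light it was 1.61, 1.53, 1.59, 1.62, 1.23 and 1.32 in the same order, a mean of 1.48 ± 0.166 (SD, n = 6). The groups overlapped, because dark columns 5 and 6 fell among the light values, yet within each number the light column was below its dark counterpart. Columns 5 and 6 were the lowest of both groups, and each number lay on the same side of its group mean in dark and in light. On the normalised log2 scale 3 of 6 numbers did so for SRX, and likewise 3 of 6 for GLDH.

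Within numbers, the light minus dark difference of AT3G52960 on the normalised log2 scale ran from -0.30 in number 5 to -0.16 in number 4, so all 6 were below 0, as were those of 10.8% of all probes tested. The mean difference was -0.23 with a 95% confidence interval from -0.40 to -0.05 (limma, adjusted p = 0.122). In the fit blocked by replicate number the interval narrowed to -0.33 to -0.13 and the gene fell past the threshold (limma, adjusted p = 0.024, lower in 6 of 6 numbers). An exact permutation test over the signs of the 6 differences gave p = 0.03125 (two-sided), the smallest it can give, and an adjusted p of 0.143 over all probes.

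**Figure D1:**
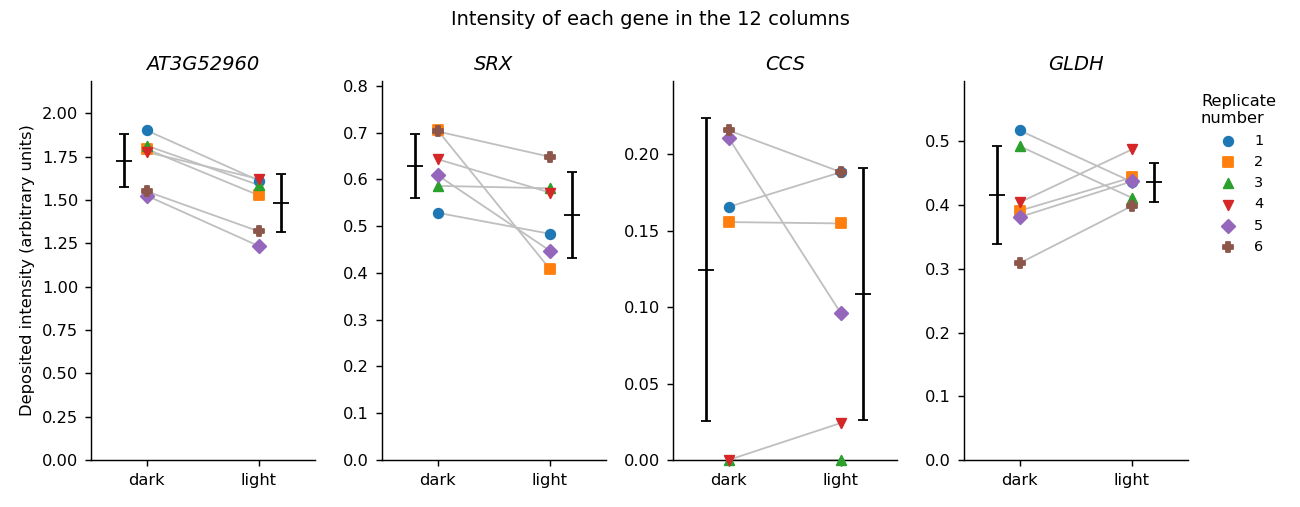
Deposited intensity (vertical axes from 0, arbitrary units, a separate scale for each gene) of the 4 genes in the 6 dark and the 6 light columns. Each marker is 1 column, grey lines join columns of the same replicate number, and bars give the mean ± SD of 6 columns; the AT3G52960 lines all slope down, those of SRX slope down by unequal amounts, GLDH lines cross, and CCS has columns at or near 0 for numbers 3 and 4 in both groups (the dark points of 3 and 4 coincide at 0).

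No 5 of the 6 numbers kept the call for AT3G52960 with the block. When any 1 number was left out of both groups, the log2 difference stayed between -0.24 and -0.21 and the adjusted p rose to between 0.0503 (without number 6) and 0.070 (without number 3). Columns of consecutive numbers also deviated together, and with these averaged to 3 columns a group and blocked the adjusted p of AT3G52960 was 0.255, in a fit where 0 probes passed and 618 had an unadjusted p under 0.05. The adjusted p with the block was also 0.0694 with columns centred on the median and 0.0617 with columns centred on the mean of their middle values, at log2 differences of -0.17 and -0.18. With each column centred within runs of 96 probe numbers the difference of AT3G52960 was -0.12, against -0.23 without centring, and did not pass (limma, adjusted p = 0.155 with the block and 0.426 without). The run of probe numbers that holds AT3G52960 had 59 probes without a zero, of which 38 had a log2 difference below 0. Their median difference was -0.053, and 9 of 48 runs had a lower median.

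**Figure D2:**
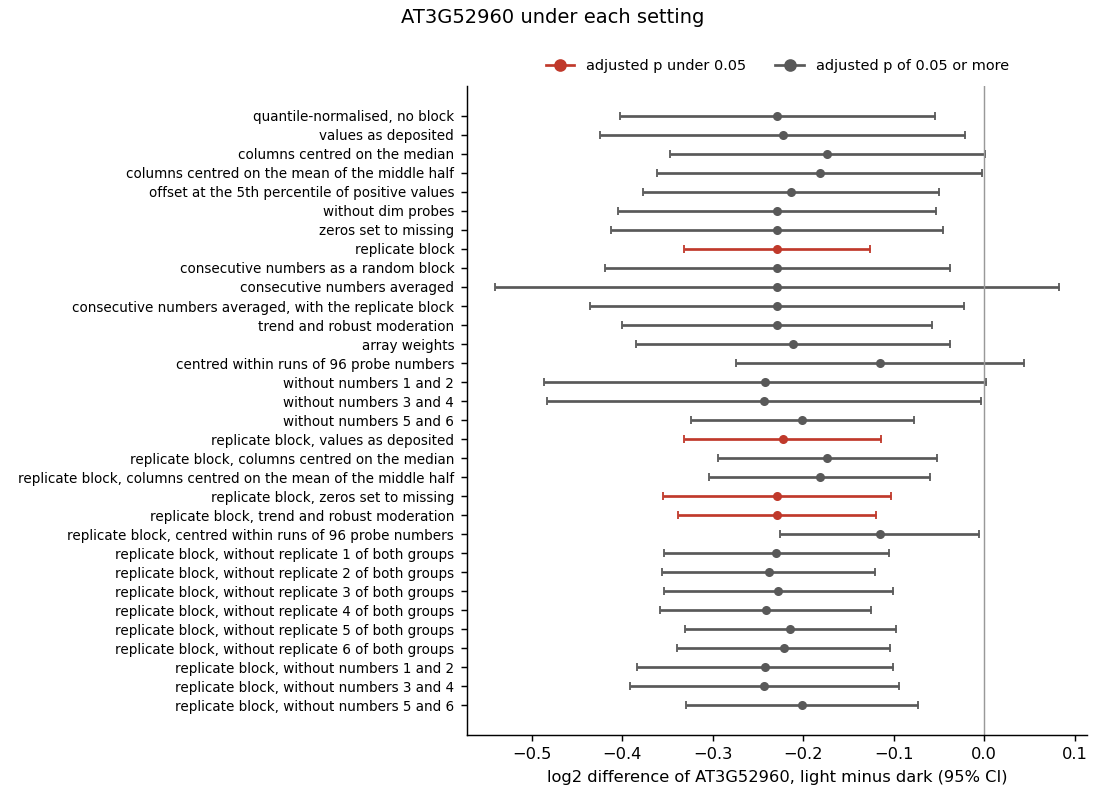
Log2 difference of AT3G52960, light minus dark (horizontal axis), under each way of treating the columns (rows), with bars for the 95% confidence interval of the limma fit. Every estimate lies below 0, between -0.24 and -0.12; the 4 red points, all with the replicate block, have an adjusted p under 0.05.

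SRX encodes sulfiredoxin, which uses ATP to reduce peroxiredoxins whose catalytic cysteine has been over-oxidised by peroxide. Its best known partners in the chloroplast are the 2-Cys peroxiredoxins, a class apart from the type II enzyme above. The intensity of SRX in dark was 0.529, 0.705, 0.586, 0.643, 0.609 and 0.703 in columns 1 to 6, a mean of 0.629 ± 0.0688 (SD, n = 6). In light it was 0.484, 0.408, 0.581, 0.572, 0.447 and 0.648, a mean of 0.523 ± 0.0916 (SD, n = 6). The groups overlapped widely: light column 6 was above 4 of the 6 dark columns, and dark column 1 was below 3 of the 6 light columns.

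The log2 difference of SRX was -0.24 with a 95% confidence interval from -0.51 to 0.04 (limma, adjusted p = 0.328, or 0.191 when blocked by number). It thus had about the mean of AT3G52960 with a wider spread. Within numbers the SRX difference was -0.65 in number 2 and -0.47 in number 5, but between -0.18 and 0.02 in numbers 1, 3, 4 and 6. On the normalised scale 5 of 6 numbers were lower in light, and 23.7% of all probes were lower in at least 5. In the deposited values all 6 were lower, a count for which the share of all probes was not taken. Number 1 was at 0.915 of its dark value there, with column medians over all probes of 0.562 in light and 0.635 in dark. The exact permutation test over signs gave p = 0.0625 (two-sided, adjusted p = 0.20 over all probes). Intervals of this width do not separate a fall to 0.704 of the dark level from no change.

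**Figure D3:**
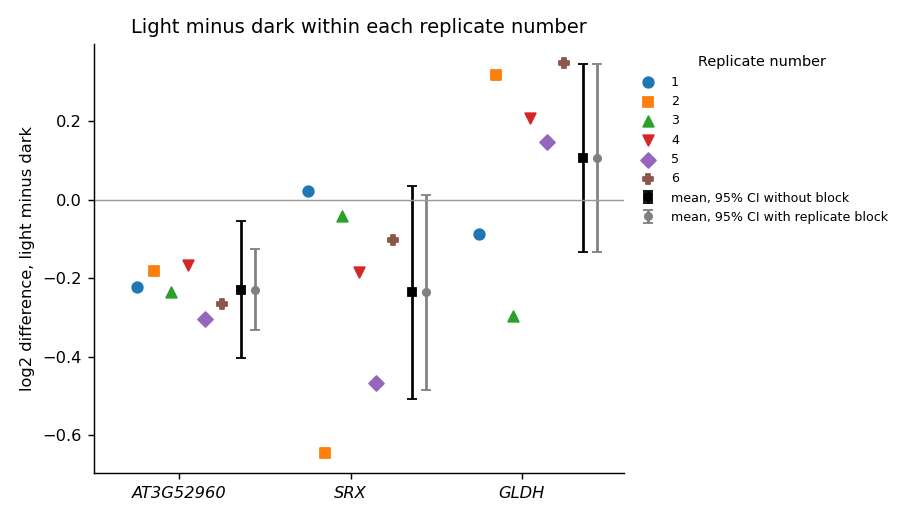
Light minus dark difference on the normalised log2 scale (vertical axis) within each replicate number (coloured markers) for AT3G52960, SRX and GLDH. Black squares and grey circles give the mean with its 95% confidence interval from limma without and with the replicate block; the AT3G52960 markers lie close together between -0.30 and -0.16, while those of SRX and GLDH spread over more than 0.6 log2 units.

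GLDH encodes L-galactono-1,4-lactone dehydrogenase, an enzyme of the inner mitochondrial membrane that makes ascorbate and passes its electrons to cytochrome c. It is also known as an assembly factor of respiratory complex I. In dark its intensity was 0.517, 0.391, 0.493, 0.404, 0.381 and 0.309 in columns 1 to 6, a mean of 0.416 ± 0.0769 (SD, n = 6). In light it was 0.437, 0.443, 0.412, 0.487, 0.437 and 0.399, a mean of 0.436 ± 0.0306 (SD, n = 6). All light values lay inside the dark range, and the dark columns 1, 3 and 6 set the wider spread of that group.

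The log2 difference of GLDH was 0.11 with a 95% confidence interval from -0.13 to 0.35 (limma, adjusted p = 0.666, or 0.51 when blocked by number). Numbers 1 and 3 were lower in light, at -0.09 and -0.30, and numbers 2, 4, 5 and 6 were higher, at 0.15 to 0.35; 38.8% of all probes were higher in light in at least 4 numbers. An exact permutation test over the signs gave p = 0.344 (two-sided, adjusted p = 0.567 over all probes). The mean moved with the columns kept: it was 0.03 without dark column 6 and 0.16 without dark column 3, 0.04 without numbers 5 and 6 and 0.18 without numbers 3 and 4. With columns centred within runs of 96 probe numbers it was 0.01. In the run that holds GLDH, 17 of 66 probes without a zero had a difference below 0. Their median difference was 0.077, and 42 of 48 runs had a lower median.

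CCS delivers copper to the copper/zinc superoxide dismutases of the cytosol and the chloroplast, which need the metal to work. In dark its intensity was 0.166 and 0.156 in columns 1 and 2, listed at 0 in columns 3 and 4, and 0.211 and 0.216 in columns 5 and 6. In light it was 0.188 and 0.155 in columns 1 and 2, listed at 0 in column 3, and 0.0242, 0.0960 and 0.188 in columns 4, 5 and 6. The columns at or near 0 were thus numbers 3 and 4 of both groups, and the remaining columns overlapped between dark and light.

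Columns of CCS listed at 0 numbered 2 of 6 in dark and 1 of 6 in light (two-sided Fisher's exact test, p = 1.0). Over all columns the mean intensity was 0.125 ± 0.0994 in dark against 0.109 ± 0.0824 in light (SD, n = 6; exact permutation test, two-sided p = 0.747). Over the positive columns only, it was 0.187 ± 0.0307 in dark (SD, n = 4) and 0.130 ± 0.0704 in light (SD, n = 5; exact permutation test, two-sided p = 0.19). Of the 4 numbers with a positive value in both groups, 3 had the lower deposited value in light, though in number 2 the light value was 0.994 of the dark one. On the normalised scale numbers 1 and 2 were higher in light and numbers 5 and 6 lower. No log2 difference is given for CCS as a result, since a listed 0 takes whatever value the offset sets: the log2 fit turned the direction, at 1.43, against -0.05 with a larger offset (limma, adjusted p = 0.873 and 0.971). The highest percentile that CCS reached within a column was 16.4, in dark column 5, so its values lay near the lower end of the table throughout.

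**Figure D4:**
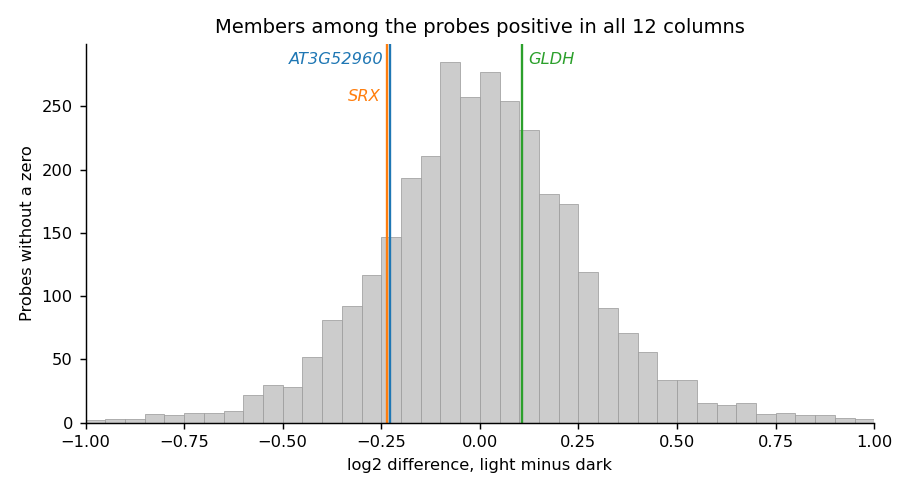
Histogram of the light minus dark log2 difference (horizontal axis, bins of 0.05, drawn from -1 to 1) over the probes positive in all 12 columns (vertical axis, number of probes). Coloured lines mark AT3G52960 at -0.23, SRX at -0.24 and GLDH at 0.11, all inside the main body of the distribution.

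Set against the whole table, the differences of these genes were of common size. Of the 3178 probes positive in all 12 columns, 17.2% had a log2 difference at or below that of AT3G52960 and 16.4% at or below that of SRX, while 32.7% had one at or above that of GLDH. The median over all probes tested was 0.002. In the blocked fit the standard error of the log2 difference was 0.0423 for AT3G52960, 0.103 for SRX and 0.0988 for GLDH.

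The responses of the genes were also compared with each other within numbers, in 3 pairs of genes. The log2 difference of AT3G52960 was below that of GLDH by 0.34 ± 0.251 (SD over 6 numbers) and lower in 5 of 6 (exact permutation test over signs, p = 0.0625, adjusted over the pairs 0.188). SRX was below GLDH by 0.34 ± 0.455 and lower in 4 of 6 numbers (exact permutation p = 0.125, adjusted 0.188). AT3G52960 and SRX differed by 0.01 ± 0.271 on average, with 3 numbers each way (exact permutation p = 0.938, adjusted 0.938). A single pair at the smallest possible p of 0.03125 would still miss a threshold of 0.05 after adjustment over the pairs, so these tests do not show that the genes responded alike.

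Few other genes of these pathways could be read. Lists of 96 loci in 10 groups covered superoxide dismutases, copper delivery, ascorbate peroxidases and catalases, peroxiredoxins and glutathione peroxidases, peroxiredoxin repair, ascorbate synthesis, recycling of ascorbate and glutathione, tocopherol synthesis, oxidative response markers and the carbonic anhydrase domain of complex I. A probe naming only that gene measured 5 of them, the 4 genes above and NTRC. A further 7 loci were on probes naming several genes and were not read. Over those 5 genes, 0 passed the unpaired fit (2 had an unadjusted p under 0.05, AT3G52960 and NTRC) and 1, AT3G52960, passed as lower with the replicate block, where 6.45% of all probes passed as lower.

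NTRC, the chloroplast NADPH-dependent thioredoxin reductase that gives electrons to the 2-Cys peroxiredoxins, had a difference of opposite sign to those of AT3G52960 and SRX. Its dark intensity was 0.653, 0.880, 0.603, 0.542, 0.645 and 0.524 in columns 1 to 6. Its light intensity was 0.804, 0.817, 0.710, 0.810, 0.771 and 0.588, and on the normalised log2 scale it was higher in light in 6 of 6 numbers, as were 11.1% of all probes. The log2 difference of 0.30 did not pass the threshold (limma, adjusted p = 0.188, or 0.0528 when blocked by number).

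The probes whose pattern over the 12 columns was most like that of AT3G52960, SRX or GLDH were taken from 502 well-measured probes naming 1 gene, by Pearson's r on the normalised log2 scale, given as a description (for CCS, from 503 probes over 9 columns). Same-numbered columns deviated together over the table as a whole, though not equally in every gene. How far such shared deviations enter these r values was not tested. For AT3G52960 the closest probes were AT5G38750 (r = 0.886), AT1G31790 (r = 0.866) and AT3G09850 (r = 0.861). Their log2 differences of light minus dark were -0.27, -0.45 and -0.54, a direction that the choice by likeness largely sets, since the 12 columns include the group difference. Over the 6 within-number differences alone, r with AT3G52960 was -0.342, -0.222 and 0.273 in the same order.

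For SRX the closest were AT3G16760 (r = 0.853), AT3G22150 (r = 0.839) and AT4G21820 (r = 0.797), none past the threshold with or without the block (limma, adjusted p = 0.144 to 0.762). For GLDH they were AT4G17260, annotated as a lactate dehydrogenase (r = 0.726), AT2G43180 (r = 0.724) and AT2G04360 (r = 0.712). Over the 6 within-number differences, r was 0.841, 0.318 and 0.508 with SRX and 0.880, 0.509 and 0.632 with GLDH, in the same orders. These differences come from the columns used for the choice. AT4G17260 was at 0.764 ± 0.0948 in dark and rose in light, where it was at 0.924 ± 0.064 (SD, n = 6; log2 0.34, adjusted p = 0.0428 by limma), was higher in 6 of 6 numbers, and missed the threshold with the block (limma, adjusted p = 0.0571).

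For CCS, over its 9 positive columns, the closest were AT4G14380 (r = 0.937), AT5G59060 (r = 0.918) and PPDK, pyruvate orthophosphate dikinase (r = 0.915). These values rest on light column 4, where CCS had its lowest positive value: over the other 8 columns, a check chosen after seeing the data, r was 0.411 for AT4G14380, -0.497 for AT5G59060 and -0.214 for PPDK. The probe of PPDK, number 349, is 2 probe numbers from that of CCS. PPDK was also low in numbers 3 and 4 of both groups, at 0.123 and 0.0594 in dark and 0.0394 and 0.0260 in light, against 0.659 or more in its other columns. AT5G59060 was low in number 4 of both groups, at 0.0667 in dark and 0.0341 in light. The low values in light column 4 are largely set by the choice of these genes for likeness to CCS, and the cause of the low columns was not tested. No source used here says whether probe numbers follow the layout of the array.

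The table as a whole held column totals of 3466 to 3664 and between 129 and 148 zeros a column. Dark columns 1 and 2 had the highest totals, 3664 and 3655, against 3504 and 3509 in light columns 1 and 2. Only number 5 had the higher total in light, 3475 against 3467. Of 7 markers of green leaf tissue 3 were measured, LHB1B2, PSBW and PSAN, all bright at mean intensities of 5.34 or more in both groups, and of 7 root markers none had a probe naming 1 gene. PSBW, a photosystem II subunit, had the higher value in light in 6 of 6 numbers, as did 11.1% of all probes (log2 0.24, adjusted p = 0.0543 by limma and 0.0409 when blocked by number). Its log2 difference was 0.44 in the values as deposited and passed there without the block (limma, adjusted p = 0.0113). On the normalised scale LHB1B2 stood at a log2 difference of 0.01, with 3 numbers rising and 3 falling. PSAN stood at 0.17, with 5 rising and 1 falling. Neither of these markers passed a limma fit: unpaired, the adjusted p was 0.968 and 0.742, and blocked it was 0.905 and 0.334. In bulk RNA such as this, fewer cells of a type and less RNA per cell cannot be told apart.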

How the data were processed

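Per the labels, total RNA of 12 samples was measured on an expression array. The deposited values, never negative and reaching 100 in 11 columns, were taken here as linear intensity. Their unit and scale, and the steps behind them, are not stated in the sources used here. Exact zeros are described as listed at 0. Of 3439 probes, 692 carried 1 name in the platform annotation, 690 of them matched to a RefSeq locus (TAIR10.1, names only).

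Columns were quantile-normalised with zeros kept at 0 and transformed as log2(value + 2.53e-05), the lowest positive value. The 30 probes at 0 throughout were left out, and the other 3409 entered a limma fit (version 3.58.1, R 4.3.3; two-sided, Benjamini-Hochberg, threshold 0.05). Means ± SD are deposited intensities. Exact permutation tests and figures used Python 3.11.15 with scipy 1.17.1, numpy 2.4.6, matplotlib 3.10.9 and pandas 2.3.3. The fits were also run on simulated data, in which consecutive numbers shared no deviation. The number of arrays limits the precision.

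Replicate numbers come from the sample titles. Deviations from the group mean correlated between same-numbered dark and light columns by 0.66 to 0.786 over 2554 probes, and 12 of 12 columns were best matched by their own number, so the numbers were taken to pair the columns, and the replicate block fit is given where it changes a call.

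The genes and lists were chosen with earlier results of these data known. Named genes are the 4 members, listed loci whose probe names 1 gene, and for each member the 3 probes naming 1 gene with the highest Pearson correlation, among probes without a zero and with a mean above the lower quartile (0.33). Alternatives changed the scaling, offset, dim-probe filter, zeros, block, averaging of consecutive numbers, moderation, weights, probe-number runs and columns.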

Additional observations from a re-analysis of the deposited data

Results flagged for a closer look

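Of 40 groups of 6 columns examined for the named genes, 4 held a column standing well away from the rest. About 2 would by chance, for independent groups chosen without regard to their values. AT4G14380 was at 0.295 in light column 4, against 0.559 to 0.716 in the other light columns. Its dark column 4 was also the lowest of its group, at 0.342 against 0.622 to 0.797 in the other dark columns. AT5G59060 was at 0.0341 in light column 4, against 0.638 to 0.859. AT4G14380 and AT5G59060 were chosen for likeness to CCS, whose lowest positive value was in that same column. The figure given by chance takes no account of this choice. NTRC was at 0.880 in dark column 2, against 0.524 to 0.653. For LHB1B2, light column 5 had 14.8 and the rest 10.4 to 12.0. None of the groups of AT3G52960, SRX, CCS or GLDH had such a column.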

How the results depend on the processing

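Under 45 alternatives each, the log2 differences of AT3G52960 and SRX stayed below 0, between -0.26 and -0.12 and between -0.31 and -0.15, and that of GLDH above 0, between 0.01 and 0.19. SRX and GLDH passed the threshold under none (lowest limma adjusted p = 0.137 and 0.236). AT3G52960 passed under 4, all with the replicate block: alone (log2 -0.23, limma adjusted p = 0.024), with trend and robust moderation (-0.23, 0.00842), as deposited (-0.22, 0.0276) and with zeros missing (-0.23, 0.033). With consecutive numbers averaged its log2 difference was -0.23 and did not pass (0.592 without the block, 0.255 with it). Leaving out 1 column gave -0.26 to -0.18 for AT3G52960, -0.31 to -0.17 for SRX, 0.03 to 0.16 for GLDH and, for CCS, -0.0409 to 0.00574 in mean intensity. The CCS difference, -0.016, was above 0 without dark column 5 (0.00123) or 6 (0.00223), without light column 3 (0.00574) or 4 (0.000907) and without numbers 5 and 6 (0.0115); in log2 fits it was 1.43, also with a random block or robust moderation, 1.37 with array weights and 1.45 with runs centred, none past the threshold.

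The count of called probes, 197, was 448 with the replicate block and 43 when consecutive numbers formed a random block. It was 0 with consecutive numbers averaged (335 at an unadjusted p under 0.05), 0 averaged and blocked (618), 0 by exact permutation (691) and 0 by exact paired permutation (747). Leaving out numbers 1 and 2 gave 73, numbers 3 and 4 gave 0 (465), numbers 5 and 6 gave 113, and leaving out 1 column gave 107 to 174. With the replicate block it was 348 with runs centred, 499 and 482 with columns centred on the mean of the middle values and on the median, 629 with robust moderation, 432 as deposited, 492 with zeros missing, 159 to 302 without 1 number (lowest without 4, highest without 6), and 0 (848), 0 (729) and 82 without numbers 1 and 2, 3 and 4, and 5 and 6. The causes were not tested. The alternatives that join the replicate block with another choice, and the CCS log2 fit, were chosen after seeing the data. CCS lies below the dim-probe limit and has no value there.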

Other observations

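Zeros shared by numbers 3 and 4, as in CCS, were looked for after its values were seen. Of 231 probes listed at 0 in some but not all columns, 19 were positive in every column of numbers 1, 2, 5 and 6, and 2 of those, CCS included, were at 0 in at least 3 of the 4 columns of numbers 3 and 4.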
